A study of Mus musculus with 12 samples.

Results

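The genes described here are Lyve1, Prox1, Flt4, Pdpn, Ccl21a, Reln, Mmrn1, Sema3d and Ackr2, a set of 9 genes used to recognise lymphatic endothelial cells, among 37775 gene symbols in the count table. They were taken from the table by symbol, and the set was chosen by the high levels that most of these genes had shown in late CMDMs in earlier results of the same libraries. Their levels in late CMDMs, and every comparison of these 9 genes that involves late CMDMs, are therefore given as a description without a test. Genes of other lists were tested in such comparisons, and those lists too were chosen with earlier results known. All 9 of 9 genes passed the filter on low counts, which left 22118 genes for testing.

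The libraries are bulk RNA-seq of monocyte-macrophage lineage cells (Mo-Macs) sorted from the ear skin of wild-type (WT) BALB/c mice with IgE-mediated chronic allergic inflammation (IgE-CAI). The mice received 300 µg of anti-TNP IgE by vein and, on the next day, 10 µg of TNP-conjugated ovalbumin (TNP-OVA) in the ear skin, and all libraries were made on day 5 after that challenge from young adult males. The CD45+CD11b+ cells without Siglec-F or Ly6G were divided by Ly6C and PD-L2 into Ly6ChiPD-L2lo classical monocytes, Ly6ChiPD-L2hi early CMDMs (classical monocyte-derived macrophages), Ly6CloPD-L2hi late CMDMs and Ly6CloPD-L2lo resident-like macrophages. Each of these 4 fractions has 3 libraries, made from 5000 to 80000 sorted cells, and nothing in the labels ties the 3 libraries of a fraction to separate animals, so p-values measure the spread between libraries. No sample of sorted endothelial cells and no unchallenged skin was analysed here.

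As background, lymphatic endothelial cells line the vessels that drain fluid, antigen and leukocytes from the skin. PROX1 is the transcription factor that sets and keeps their identity, and VEGFR-3, encoded by Flt4, is the receptor through which VEGF-C and VEGF-D make them grow. They secrete the chemokine CCL21, which draws CCR7-bearing dendritic cells into the vessel, together with reelin and multimerin-1. LYVE1, a receptor for the matrix polysaccharide hyaluronan, and podoplanin, the ligand of the platelet receptor CLEC-2, sit on their surface. LYVE1 is also carried by a class of tissue macrophages that lie along vessels, and podoplanin by inflammatory macrophages, fibroblasts and keratinocytes, so neither is restricted to the lymphatic lineage.

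Late CMDMs had the highest level of 7 of the 9 genes, namely Lyve1, Prox1, Flt4, Pdpn, Ccl21a, Reln and Mmrn1, and for each of these all 3 late libraries lay above the other 9 libraries. Over all tested genes this held for 6% of genes. The remaining genes, Sema3d and Ackr2, had their highest level in early CMDMs, with all 3 early libraries above the other 9, as had 14.6% of all tested genes. The name of a late CMDM gene thus held for 7 of the 9 genes and not for Sema3d and Ackr2. The median log2 fold change of the 9 genes in late CMDMs was 3.70 against classical monocytes, 1.82 against early CMDMs and 2.64 against resident-like macrophages, where the median over all tested genes was -0.01, 0.02 and -0.003. These medians are for description, since the same contrasts chose the genes.

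Ccl21a cannot be read apart from its near-identical copies, so its sequence is shown first. Ccl21a lies at chr4:42772860-42773993 on the minus strand and Ccl21b at chr4:42255767-42256432 on the plus strand of GRCm38 (GENCODE M21), and their coding sequences of 402 bases differed at 2 positions, an identity of 99.5%. Bases 64 to 214 of each coding sequence, which hold both differences, are printed below 5′ to 3′ in the sense direction, with the differing bases in capitals.
Ccl21a: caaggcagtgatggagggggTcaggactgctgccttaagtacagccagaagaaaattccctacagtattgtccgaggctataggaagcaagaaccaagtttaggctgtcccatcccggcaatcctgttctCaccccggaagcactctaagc
Ccl21b: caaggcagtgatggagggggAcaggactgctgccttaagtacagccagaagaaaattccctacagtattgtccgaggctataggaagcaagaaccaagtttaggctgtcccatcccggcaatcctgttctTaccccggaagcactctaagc
Counted from the first base of the start codon, the differences are T84A and C194T, with the base of Ccl21a first. Any read that covers neither position fits both coding sequences equally. The sequences are those of the reference genome, which is not from the BALB/c strain of these mice.

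Prox1 (chr1:190118035-190170714, minus strand), the lymphatic identity factor, was present at low counts. The 3 late libraries had 16.7, 16.7 and 12.2 CPM (read counts scaled to the library size, corrected by TMM), the early libraries 3.77, 3.22 and 5.32, the resident-like libraries 1.56, 2.18 and 2.24, and the classical monocyte libraries 0.554, 1.43 and 1.45. No fractions overlapped, and the order late, early, resident-like, classical monocytes was complete for this gene. The mean in late CMDMs was 15.2 ± 2.59 CPM (SD, n = 3), which was 3.70 times that in early CMDMs and 13.3 times that in classical monocytes. The reads behind the values numbered 9 in the lowest classical monocyte library and 274 in the highest late library.

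Flt4 (chr11:49609263-49652739, plus strand), which encodes the growth receptor VEGFR-3, had 12.3, 13.5 and 7.48 CPM in the late libraries and 2.72, 2.47 and 3.67 CPM in the early libraries. The resident-like libraries had 0.377, 0.728 and 0.883 CPM and the classical monocyte libraries 0.677, 0.660 and 0.390 CPM, and these last fractions overlapped. Flt4 thus had the steepest gradient of the 9 genes from late CMDMs to classical monocytes, 19.2 times. In both low fractions no library had more than 15 reads of it.

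Ccl21a, the chemokine, had 182, 186 and 105 CPM in the late libraries, 36.9, 37.1 and 49.1 in the early libraries, 9.33, 12.1 and 14.3 in the resident-like libraries and 8.56, 12.9 and 12.2 in the classical monocyte libraries. The resident-like and classical monocyte libraries overlapped, and the other fractions did not. The rows Ccl21b, Ccl21c and Ccl21d, and the rows Gm13304 and Gm10591 that RefSeq lists under Ccl21 synonyms, followed the same order at the top, with a late level 3.33 to 3.97 times the early one. Of the reads of these 6 rows, Ccl21a took 36.7% to 46.1%, Ccl21b 22.3% to 26.1%, Ccl21c 4.97% to 6.33%, Ccl21d 7.35% to 11.3%, Gm13304 6.76% to 10.9% and Gm10591 7.06% to 12.6% over the 12 libraries. The libraries differed far more in the sum of these rows, which ran from 379 to 7111 reads, than in its split. Since the counting could divide the reads of near-identical copies among their rows, the values belong to the Ccl21 copies together and not to Ccl21a alone.

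Reln and Mmrn1 encode secreted glycoproteins. Reln (chr5:21884454-22344702, minus strand) had 18.4, 17.6 and 12.6 CPM in the late libraries, 5.50, 4.24 and 7.72 in the early libraries, 2.10, 3.28 and 2.41 in the resident-like libraries and 1.79, 1.98 and 2.12 in the classical monocyte libraries. Mmrn1 (chr6:60924976-60989378, plus strand) had 42.5, 39.3 and 23.4 CPM in the late libraries, 9.34, 8.60 and 11.8 in the early libraries, 1.94, 3.09 and 3.35 in the resident-like libraries and 1.54, 2.14 and 2.34 in the classical monocyte libraries. For both genes the late libraries stood above the early ones and the early ones above the rest, while the resident-like and classical monocyte libraries overlapped. The late mean was 2.78 times the early mean for Reln and 3.54 times for Mmrn1. Multimerin-1 is also stored in platelets. The summed level of 6 platelet genes was 8.29 to 8.72 CPM in early CMDMs, 4.70 to 6.07 in late CMDMs, 4.19 to 5.91 in classical monocytes and 4.77 to 5.28 in resident-like macrophages. Of these genes Gp1bb and Itga2b were highest in early CMDMs, Ppbp had its highest mean, 1.45 CPM, in late CMDMs, and Gp9 had no read outside the resident-like libraries. The part of platelet RNA in the Mmrn1 level was not tested.

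Lyve1 (chr7:110850607-110863239, minus strand), the hyaluronan receptor, had 58.7, 77.7 and 36.5 CPM in the late libraries. The early libraries had 11.7, 13.3 and 17.0 CPM, the resident-like libraries 11.2, 17.5 and 17.1 CPM, and the classical monocyte libraries 4.99, 3.41 and 4.46 CPM. Resident-like macrophages and early CMDMs overlapped in the middle, between late CMDMs at the top and classical monocytes at the bottom. The late mean was 57.6 ± 20.7 CPM (SD, n = 3), which was 3.77 times the resident-like mean and 4.12 times the early mean.

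Pdpn (chr4:143267431-143299564, minus strand), which encodes podoplanin, had 92.1, 95.3 and 126.6 CPM in the late libraries, 47.7, 47.2 and 74.9 in the early libraries, 53.0, 52.3 and 57.6 in the resident-like libraries and 35.3, 41.6 and 87.2 in the classical monocyte libraries. The late libraries were the highest, but only by 1.85 to 1.93 times in the means, and the other fractions overlapped one another. With libraries scaled by 10 leukocyte genes the late against early log2 difference of Pdpn was 0.11, beside a median of -0.79 over all genes in that comparison. In each of the 4 fractions the library numbered 3 had the highest Pdpn level. Among the late libraries that same library had the lowest level of Lyve1, Prox1, Flt4, Ccl21a, Reln, Mmrn1 and Ackr2, so Pdpn ran opposite to the lineage genes within late CMDMs.

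**Figure D1:**
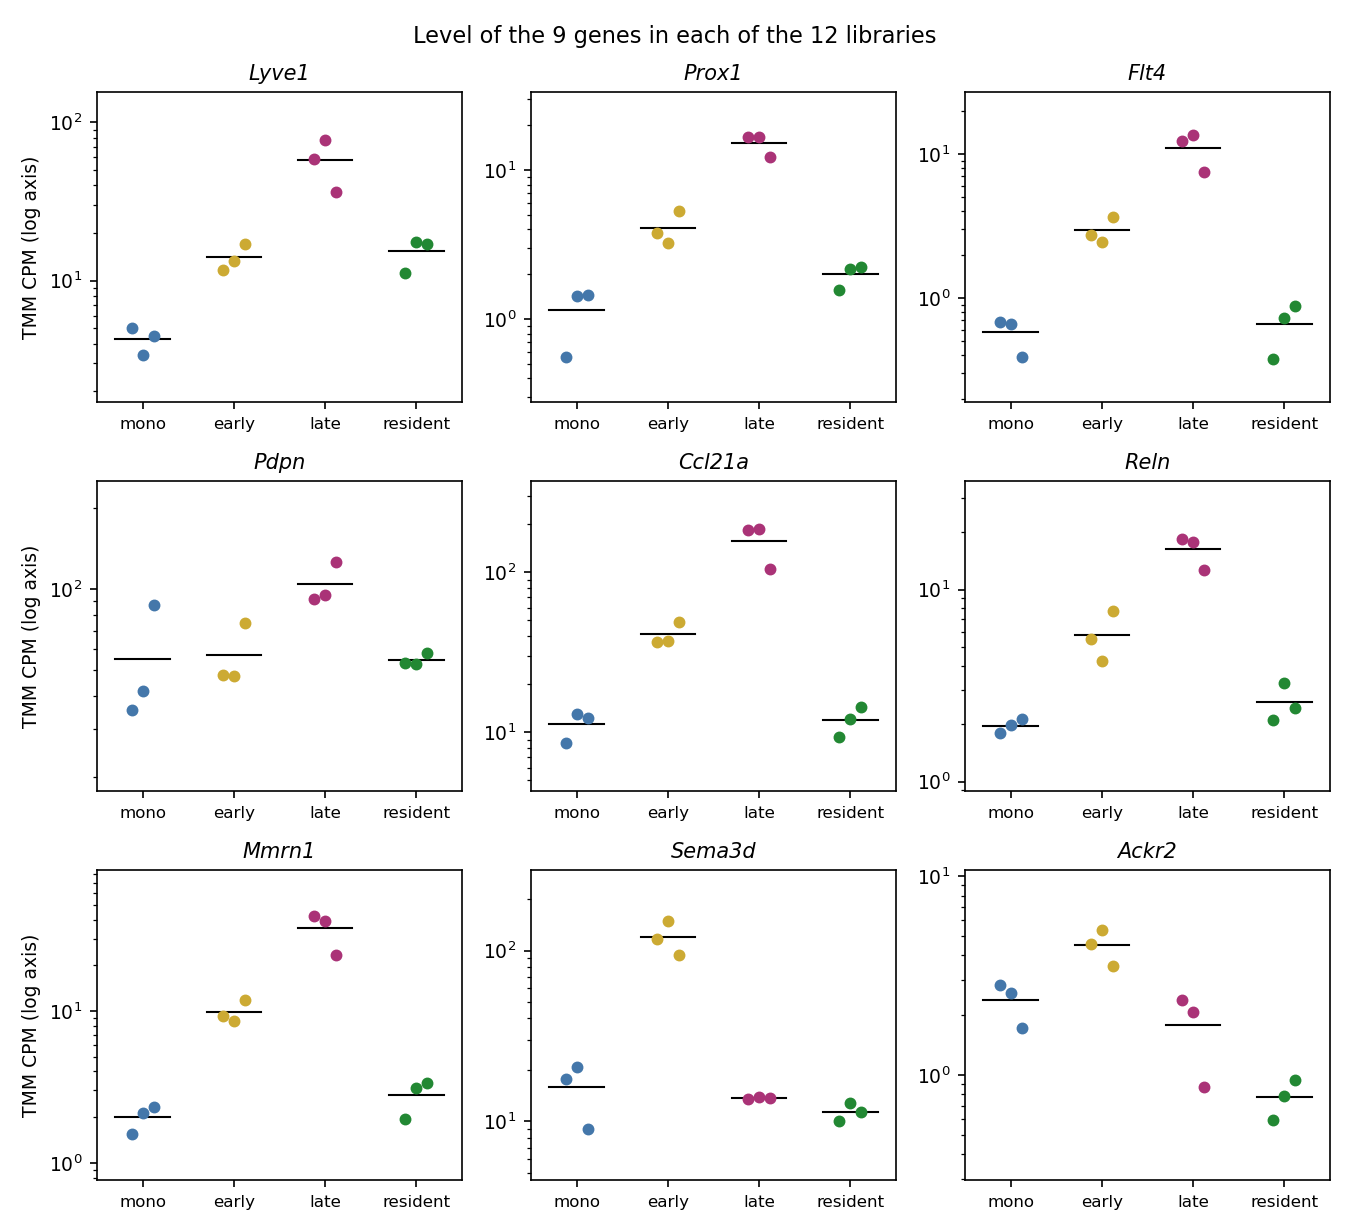
Level of each gene in TMM-scaled CPM (log axis, a separate range for each panel) in the 4 fractions (mono, classical monocytes); each point is a library, from 1 on the left to 3 on the right, and each bar the mean of 3. Late CMDMs are highest in 7 panels, and early CMDMs in the panels of Sema3d (mean 119.8 CPM) and Ackr2 (mean 4.50 CPM).

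Sema3d (chr5:12383385-12588948, plus strand), a secreted guidance molecule of the semaphorin family, followed another course. It had 117.5, 148.2 and 93.6 CPM in the early libraries, 17.6, 20.7 and 9.03 in classical monocytes, 13.5, 13.8 and 13.6 in late CMDMs and 10.1, 12.7 and 11.4 in resident-like macrophages. The early mean was 8.79 times the late mean, and the late libraries lay within the range of the classical monocytes. Keratinocyte RNA was followed by the keratins Krt1, Krt5, Krt10, Krt14 and Krt15 and by Dsp, which encodes desmoplakin. The summed level of these 6 genes was 17096 to 27284 CPM in early CMDMs, 3106 to 3647 in late CMDMs, 1871 to 4050 in classical monocytes and 2298 to 2615 in resident-like macrophages. Sema3d amounted to 3.78 to 6.48 CPM for each 1000 CPM of that sum in all 12 libraries, although Sema3d itself varied 16.4 times. Pearson's r between the log2 levels of Sema3d and of that sum was 0.99 over the 12 libraries, as a description of libraries that share fractions. The part of keratinocyte RNA in the Sema3d level was not tested.

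Ackr2 (chr9:121898355-121911074, plus strand), a scavenging receptor that removes inflammatory CC chemokines, rested on 13 to 34 reads in each late library. It had 4.58, 5.37 and 3.55 CPM in the early libraries, 2.83, 2.58 and 1.73 in classical monocytes, 2.39, 2.07 and 0.877 in late CMDMs and 0.593, 0.789 and 0.942 in resident-like macrophages. The early libraries stood alone at the top, the classical monocyte and late libraries overlapped, and so did the late and resident-like libraries.

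The comparisons without late CMDMs are not those by which the genes were chosen, though earlier results of the same libraries were known. These comparisons were tested with the quasi-likelihood test of edgeR, and p-values were adjusted by the Benjamini-Hochberg method over all tested genes. In early CMDMs against classical monocytes, 8 of 9 genes were higher, where 24.2% of all tested genes were higher and 20.6% lower. Sema3d rose most, by a log2 fold change of 2.92 (SE 0.24, adjusted p = 3.3e-07 by edgeR). Flt4 rose by 2.35 (SE 0.35, adjusted p = 3.7e-05 by edgeR) and Mmrn1 by 2.29 (SE 0.27, adjusted p = 3.9e-06 by edgeR). The other lineage genes rose by 1.86 for Ccl21a, 1.82 for Prox1 and 1.56 for Reln, Lyve1 by 1.71 and Ackr2 by 0.92 (adjusted p = 0.014 by edgeR). Without the library classical monocyte 3 the adjusted p of Ackr2 was 0.062, and without early CMDM 2 it was 0.064, by the same edgeR test. Pdpn had a difference of 0.05 (SE 0.30, adjusted p = 0.91 by edgeR). Without classical monocyte 3, the library with the highest Pdpn level of its fraction, it was 0.56 (adjusted p = 0.031 by edgeR). Markers of other cell types moved in this comparison too. Of 15 genes shared by blood and lymphatic endothelium 12 were higher, and so were 7 of 11 tested blood endothelial genes, 6 of 7 genes of pericytes and smooth muscle cells and 6 of 6 keratinocyte genes. The summed level of 6 fibroblast genes was 2988 to 4205 CPM in early CMDMs and 3254 to 5588 CPM in classical monocytes, which overlap. Ptprc, which encodes the leukocyte antigen CD45, had a mean of 726 CPM in classical monocytes and of 114 CPM in early CMDMs. The part of other cells' RNA in the rise of the 8 genes was not tested.

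In resident-like macrophages against classical monocytes, Lyve1 was the only gene of the 9 that rose, by a log2 fold change of 1.83 (SE 0.29, adjusted p = 2.7e-04 by edgeR), and Ackr2 the only one that fell, by 1.61 (SE 0.35, adjusted p = 0.0025 by edgeR). Over all tested genes 10.8% were higher and 12.9% lower, and 1 of 9 in each direction lies near those shares. Prox1 had a difference of 0.77 (SE 0.32, adjusted p = 0.10 by edgeR), which passed the threshold without a filter on low counts (adjusted p = 0.045). Mmrn1 differed by 0.46, Reln by 0.40, Flt4 by 0.19, Ccl21a by 0.08, Pdpn by -0.01 and Sema3d by -0.47, none past the threshold. Without classical monocyte 3, Sema3d passed it at -0.75 (adjusted p = 0.0035 by edgeR). With 3 libraries per fraction and 7 to 57 reads per library for Prox1, Flt4, Reln and Mmrn1 in these fractions, small differences of these genes were not detectable at this depth.

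In resident-like macrophages against early CMDMs, 7 of 9 genes were lower, where 25.1% of all tested genes were lower and 21.4% higher. Sema3d fell by 3.39, Ackr2 by 2.53, Flt4 by 2.16, Mmrn1 by 1.83, Ccl21a by 1.79, Reln by 1.17 and Prox1 by 1.04 on the log2 scale. The largest adjusted p among them was that of Prox1 (0.0055 by edgeR). Lyve1 had a difference of 0.12 (SE 0.26, adjusted p = 0.72 by edgeR), which turned to -0.04 when libraries were scaled by their totals alone, and Pdpn one of -0.06 (SE 0.30, adjusted p = 0.89 by edgeR). Scaled by 10 leukocyte genes, Lyve1 was lower by -1.45 and Pdpn by -1.62 in this comparison. That scaling moved the median of all tested genes to -1.58, and relative to that median the differences were 0.13 for Lyve1 and -0.04 for Pdpn. Here too markers of other cell types moved with the genes, with 10 of 15 shared endothelial genes, 6 of 11 blood endothelial genes, 6 of 6 keratinocyte genes, 6 of 7 genes of pericytes and smooth muscle cells and 6 of 6 fibroblast genes lower. Their part in the fall of the 7 genes was not tested.

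Lyve1 therefore parted from the summed lineage genes in resident-like macrophages. Set against the summed reads of Prox1, Flt4, Ccl21a, Reln and Mmrn1, Lyve1 had 0.201 to 0.240 reads per read in early CMDMs and 0.216 to 0.285 in late CMDMs. In resident-like macrophages it had 0.732 to 0.821, with all 3 libraries above those of the other fractions, and in classical monocytes 0.178 to 0.380. The ratio needs no scaling between libraries and is not corrected for gene length, and it holds the Ccl21a row alone of the Ccl21 copies. These 5 genes were picked after their values were seen, leaving out Sema3d and Ackr2. With all 7 genes other than Lyve1 and Pdpn the mean log2 ratio was -1.09 ± 0.11 in resident-like macrophages, -2.15 ± 0.22 in late CMDMs, -3.76 ± 0.34 in early CMDMs and -3.03 ± 0.52 in classical monocytes (SD, n = 3).

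**Figure D2:**
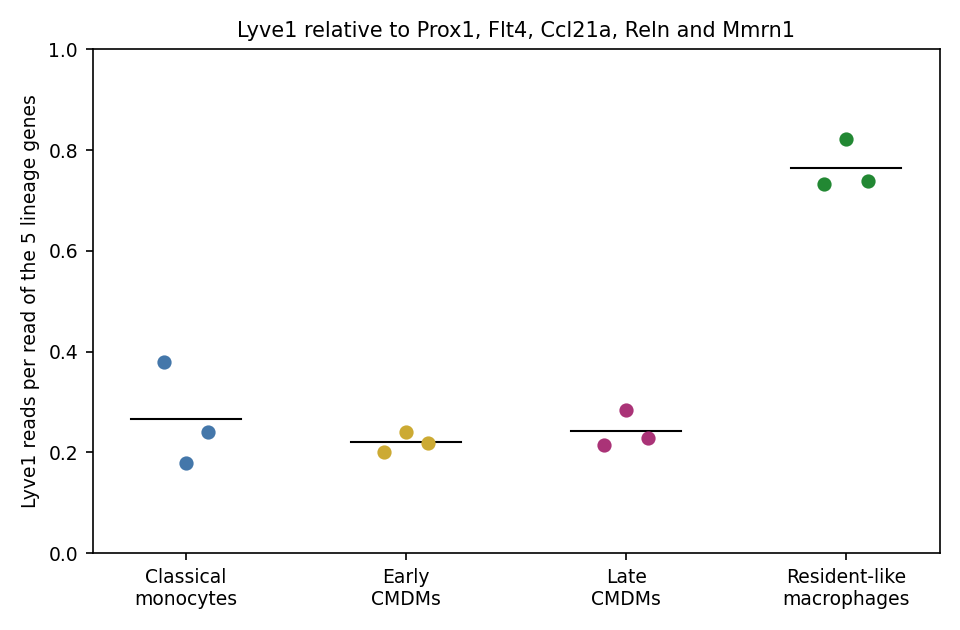
Reads of Lyve1 per read of Prox1, Flt4, Ccl21a, Reln and Mmrn1 summed (linear axis from 0), in each library (points) with the mean of 3 (bars). The resident-like libraries lie between 0.732 and 0.821, above all other libraries, which lie between 0.178 and 0.380.

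The 5 lineage genes kept nearly the same proportions in early and late CMDMs. Their summed level was 160 to 273 CPM in late CMDMs, 55.6 to 77.6 in early CMDMs, 15.3 to 23.2 in resident-like macrophages and 13.1 to 19.1 in classical monocytes. Counted in reads, which are not corrected for gene length, the Ccl21a row made up 66.8% ± 1.4 of their reads in late and 64.4% ± 1.9 in early CMDMs, Mmrn1 14.9% ± 0.64 and 15.6% ± 0.44, Prox1 6.62% ± 0.86 and 6.38% ± 0.53, and Flt4 4.71% ± 0.22 and 4.62% ± 0.16 (SD, n = 3). Reln made up 7.03% ± 0.74 in late and 9.01% ± 1.2 in early CMDMs. In resident-like macrophages Prox1 made up 10.0% ± 0.33 and Ccl21a 59.7% ± 2.8. In classical monocytes Ccl21a and Prox1 lay near the late shares, at 66.3% ± 1.2 and 6.51% ± 2.0. There Mmrn1 made up 11.9% ± 0.73, Reln 11.8% ± 1.7 and Flt4 3.57% ± 1.5. In these bulk libraries, a change in the share of cells that carry a transcript and a change in its level per cell cannot be told apart.

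Across the 12 libraries the 5 lineage genes were alike in their log2 CPM, with Pearson's r of 0.94 to 0.99 between any pair of them. Lyve1 reached 0.85 to 0.91 with them, Pdpn 0.63 to 0.78, Sema3d 0.07 to 0.22 and Ackr2 0.06 to 0.29. These values describe libraries that share 4 fractions and a common scaling. The set was chosen for high late levels, and the 5 genes were picked after their values were seen. High r among them follows in part from that choice and is no separate support for a shared source. Among 18876 genes with a mean of at least 1 CPM, the 5 genes most like Prox1 were Mmrn1 (r = 0.98), Reln (0.98), Sord (0.97), Ccl21a (0.97) and Gm13304 (0.97), so that 3 of the 5 are members of the set. The 5 genes most like Lyve1 were Chp2 (0.97), Tfrc (0.97), Wwp1 (0.97), Folr2 (0.97) and Tanc2 (0.96), with none of the set among them. Folr2, a folate receptor, marks the same class of tissue macrophages as Lyve1. Of the 50 genes most like Lyve1, 4 belonged to a list of 10 genes of LYVE1+ tissue macrophages and none to the set of 9, and of the 50 most like Prox1 there were 2 of that list, Selenop and Cd163, and 4 of the set. Of the 50 genes most like Sema3d, 2 were keratin genes of the keratinocyte list. That list holds only 6 genes, and the 50 also held genes outside it such as the keratin gene Krt2 and the desmosomal genes Dsg1a, Dsg1b, Dsg1c and Dsc3. The lowest r among the 50 was 0.99.

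**Figure D3:**
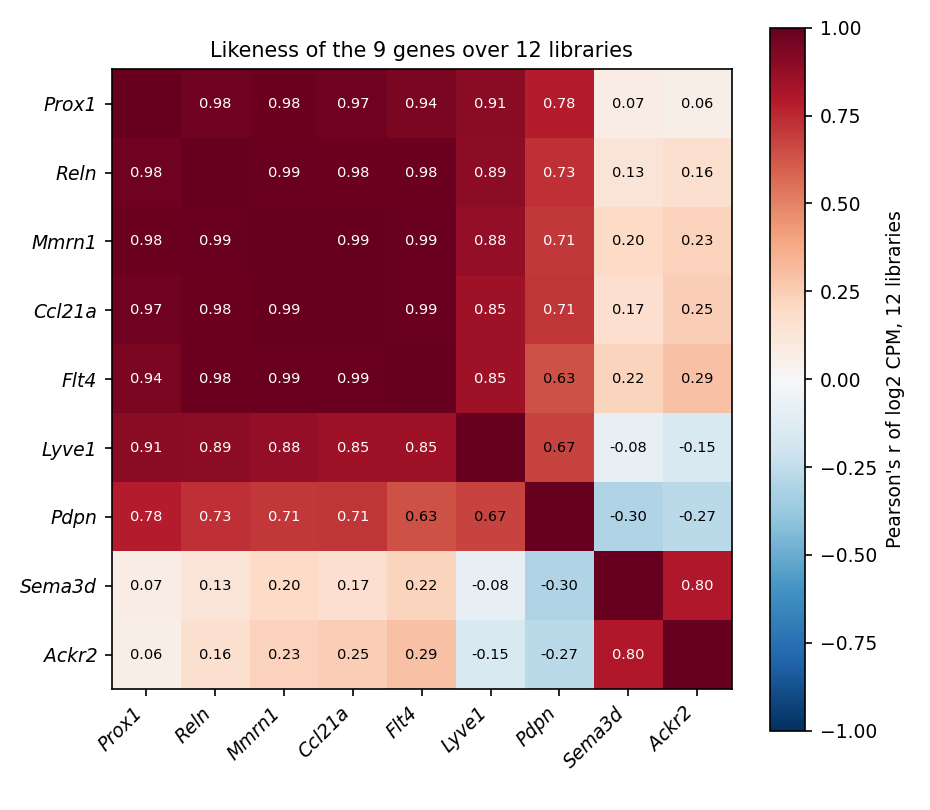
Pearson's r between the log2 CPM of each pair of the 9 genes over 12 libraries, on a colour scale from -1 to 1. Prox1, Reln, Mmrn1, Ccl21a and Flt4, picked after their values were seen, form a block of r from 0.94 to 0.99. Sema3d and Ackr2 have r under 0.30 with each of them.

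To set the 9 genes beside the rest of the lymphatic programme, 13 further lymphatic genes were counted, a list chosen with earlier results known. Against classical monocytes, 11 of 13 were higher in late CMDMs, where 18.1% of all tested genes were higher and 17.5% lower. Against resident-like macrophages 10 of 13 were higher (15.4% of all tested genes were higher and 12.7% lower). Against early CMDMs 5 were higher and 3 lower (of all tested genes 14.4% and 17.5%), and the list's median log2 fold change was 0.12. Scaled by 10 leukocyte genes, only 1 of 13 was higher than in early CMDMs, where that scaling moved the median of all genes to -0.79. The genes that were higher in late than in early CMDMs were Nrp2, a VEGF-C co-receptor, by 1.24, Itga9, an integrin of lymphatic valves, by 1.10, the junction gene Cldn11 by 1.60, Fxyd6 by 1.22 and Klhl4 by 1.25 on the log2 scale. Pard6g, Rassf9 and Clca3a1 were lower, by -1.47, -0.75 and -1.21. Nrp2 had 277 to 298 CPM in late CMDMs and 251 to 273 CPM in resident-like macrophages, a difference of 0.14 that did not pass the test (adjusted p = 0.62 by edgeR). Fxyd6 had 18.7 to 21.4 CPM in late CMDMs and no more than 9.03 CPM in any other library.

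Genes of blood vessels took another course. Of 15 genes shared by blood and lymphatic endothelium, 8 were higher and 1 lower in late CMDMs than in classical monocytes (of all tested genes 18.1% and 17.5%), 8 higher and 1 lower than in resident-like macrophages (15.4% and 12.7%), but 1 higher and 7 lower than in early CMDMs (14.4% and 17.5%). Without late CMDM 2 only 5 were higher than in resident-like macrophages, and without early CMDM 3 or resident-like 3 there were 2 that were higher than in early CMDMs. Among them Cldn5, a tight junction gene, had 20.9, 26.3 and 14.2 CPM in late CMDMs and 11.6 to 12.96 in early CMDMs, a difference that did not pass the test. Pecam1 had 102 to 109 CPM in late and 100.5 to 103.7 CPM in early CMDMs, and Cdh5, which encodes the endothelial cadherin, 11.1 to 14.0 and 17.6 to 21.2. Of 12 blood endothelial genes, 11 were tested, and 8 were lower and 0 higher in late than in early CMDMs by edgeR, with 0 higher at an unadjusted p under 0.05 and 0 by DESeq2. Fitted with only the 6 libraries compared, 1 was higher. Sele and Selp, the selectins by which inflamed venules catch leukocytes, had 3.74 to 5.19 and 7.66 to 9.24 CPM in late CMDMs against 38.3 to 53.9 and 49.3 to 89.5 CPM in early CMDMs. Against classical monocytes 2 of 11 were higher (Aqp1 and Emcn) and 2 lower (Flt1 and Sele), and against resident-like macrophages 1 was higher (Kdr) and 2 lower (Flt1 and Vwf). These counts lie near the shares over all tested genes, which were 18.1% higher and 17.5% lower against classical monocytes and 15.4% and 12.7% against resident-like macrophages. Without classical monocyte 1 or 3 only 1 was higher than in classical monocytes, and without resident-like 2 there were 4 that were higher than in resident-like macrophages. Their summed level was 100.2 to 119.5 CPM in late CMDMs, 246 to 318 in early CMDMs, 83.9 to 111.7 in classical monocytes and 70.4 to 213 in resident-like macrophages, where library 2 was the high one. The part of endothelial cell RNA in the levels of the 9 genes was not tested.

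Genes of LYVE1+ tissue macrophages had their highest mean in late CMDMs in 9 of 10 cases, as had 20.5% of all tested genes. Timd4 had its highest mean in resident-like macrophages. Of these 10 genes, 9 were higher in late CMDMs than in classical monocytes (of all tested genes 18.1%). All 10 were higher than in early CMDMs (14.4%), and 8 were higher and 1 lower than in resident-like macrophages (15.4% and 12.7%). Cd163, a haemoglobin scavenger receptor, was higher by 2.05 in log2 than in resident-like macrophages, and Folr2 by 1.70. Folr2 had 356 to 384 CPM in late CMDMs, 78.2 to 159 in early CMDMs, 92.4 to 136 in resident-like macrophages and 28.9 to 41.3 in classical monocytes. In resident-like macrophages against classical monocytes 9 of the 10 genes were higher (of all tested genes 10.8%), among them Folr2 by 1.68 (adjusted p = 6.1e-05 by edgeR). Between resident-like macrophages and early CMDMs the list was divided. Mrc1, F13a1 and Timd4 were higher in resident-like macrophages, by 0.54, 1.27 and 2.75, Cd163 and Gas6 were lower, by -0.70 and -0.73, and 5 genes did not pass the test, among them Folr2 with a difference of -0.03 (adjusted p = 0.93 by edgeR). Timd4, a phosphatidylserine receptor of resident macrophages, was the gene that was lower in late CMDMs than in resident-like macrophages, by -1.30.

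**Figure D4:**
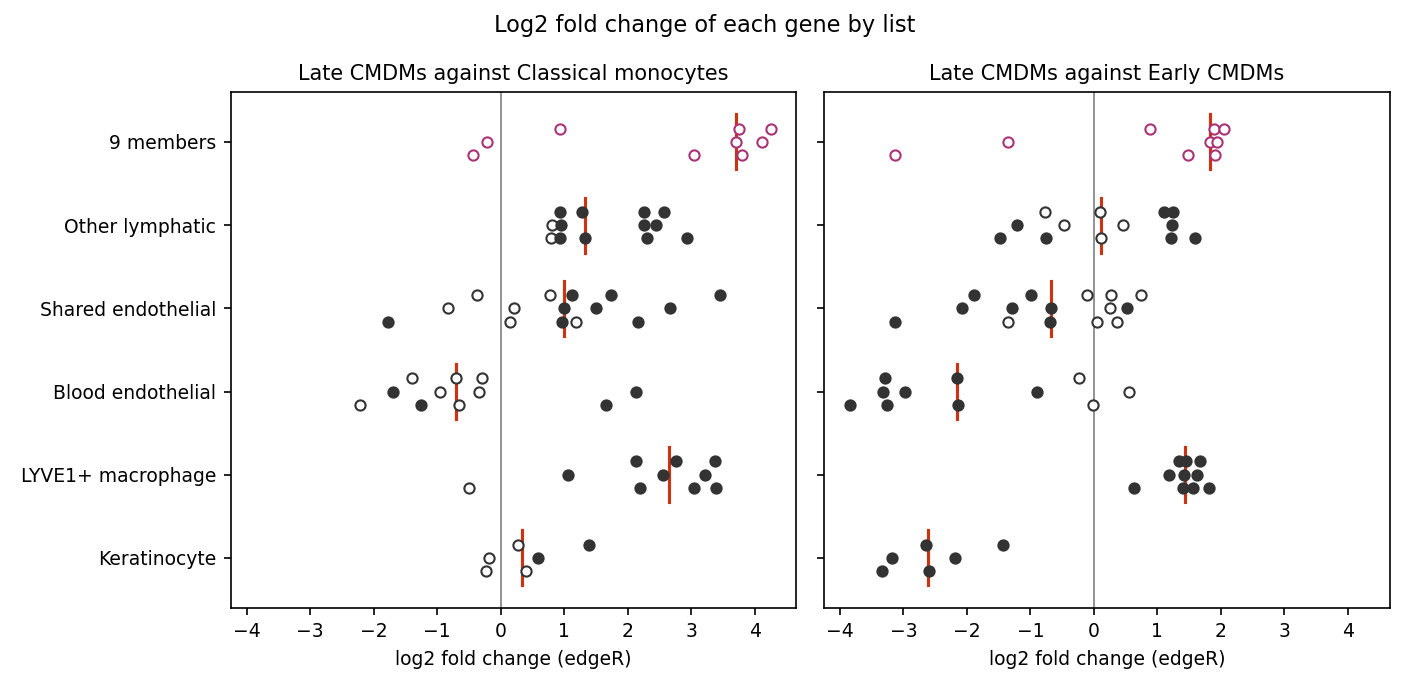
Log2 fold change (x axis) of each tested gene of 6 lists in late CMDMs against classical monocytes (left) and against early CMDMs (right); filled points passed an adjusted p of 0.05, open points did not, the 9 genes of the set are drawn open because they were not tested here, and red bars mark each list's median. The blood endothelial genes have a median of -2.15 against early CMDMs, where the 9 genes have 1.82 and the LYVE1+ macrophage genes 1.44.

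Ligands and partners of these proteins were counted in the same way. Of 11 partner genes, 3 were higher and 5 lower in late CMDMs than in classical monocytes, where 18.1% of all tested genes were higher and 17.5% lower. Against early CMDMs 4 were higher and 6 lower (of all tested genes 14.4% and 17.5%). Vegfc, the main ligand of VEGFR-3, had no more than 4 reads in any late library and 10 to 26 in classical monocytes. Vegfd had 2.43 to 3.24 CPM in late and 4.50 to 6.74 CPM in early CMDMs, where it was highest. Ccr7, the receptor of CCL21, had a mean level of 35.2 CPM in classical monocytes, 30.6 in resident-like macrophages, 29.2 in late CMDMs and 7.31 in early CMDMs, so that only the early fraction stood apart. Late and early CMDMs differed by a log2 fold change of 1.997 (adjusted p = 1.9e-07 by edgeR), and late CMDMs and classical monocytes by -0.27 (adjusted p = 0.14 by edgeR). Of the reelin pathway, the receptor Lrp8 was higher by 0.72 and the receptor Vldlr and the adaptor Dab1 lower by -1.85 and -2.56 in late than in early CMDMs. Lrp8 was highest in classical monocytes, with a mean of 68.8 CPM against 40.2 in late CMDMs. Nrp1, a co-receptor of VEGF and semaphorins, had 88.1 to 123 CPM in late CMDMs, above all other libraries.

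Among 12 genes of hyaluronan binding, synthesis and breakdown, 11 were tested, and 2 were higher and 4 lower in late CMDMs than in classical monocytes. The count of higher genes lies at the share over all tested genes, of which 18.1% were higher and 17.5% lower. The higher ones were the hyaluronidases Hyal1, by 1.57, and Hyal2, by 1.63. Those that fell were the synthases Has1 and Has2, the hyaluronan receptor Cd44 and Tnfaip6, which encodes a hyaluronan-binding protein, with Cd44 lower by -1.07 and Has1 by -3.18. The summed level of 6 fibroblast genes had a mean of 4526 CPM in classical monocytes and of 485 CPM in late CMDMs, and its part in the levels of Has1, Has2 and Tnfaip6 was not tested. Against early CMDMs 3 were higher and 3 lower (of all tested genes 14.4% and 17.5%), and Cd44 was not among them. Stab2, the other hyaluronan scavenger receptor of lymphatic and sinusoidal endothelium, had at most 0.876 CPM in any library.

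The other cell types that a skin sort can hold were followed by their markers. Of 6 fibroblast genes, all 6 were lower in late CMDMs than in classical monocytes and in early CMDMs, with a summed level of 478 to 499 CPM in late CMDMs and 2988 to 4205 CPM in early CMDMs. All 6 keratinocyte genes were lower in late than in early CMDMs. Of 7 genes of pericytes and smooth muscle cells, 5 were lower in late than in early CMDMs. Of all tested genes 17.5% were lower in late CMDMs in either comparison. Against resident-like macrophages 3 fibroblast, 3 keratinocyte and 2 pericyte and smooth muscle genes were higher in late CMDMs, and 0 lower. The shares over all tested genes there were 15.4% and 12.7%. Against classical monocytes 2 keratinocyte genes were higher and 0 lower, and 2 pericyte and smooth muscle genes were higher and 1 lower. The shares over all tested genes in that comparison were 18.1% higher and 17.5% lower. The summed level of 7 monocyte and macrophage genes was 5762 to 6721 CPM in late CMDMs, 2304 to 3276 in early CMDMs, 6815 to 8914 in classical monocytes and 9007 to 10036 in resident-like macrophages, so that the markers of the labelled cell type were present in every library. Most of the sum was Lyz2, with means of 4030, 1764, 5811 and 7310 CPM in that order of fractions. Ptprc, another of the 7 genes, had means of 199, 114, 726 and 427 CPM in the same order. Of the 7 genes, 3 had their highest mean in late CMDMs, 2 in classical monocytes and 2 in resident-like macrophages. The total counts were 12537178 to 19844113 per library, at which 3 counts correspond to 0.162 to 0.239 CPM.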

How the data were processed

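Bulk RNA-seq of 4 Mo-Mac fractions, 3 libraries each, was analysed. The deposited values are raw counts per gene symbol: the authors trimmed reads with cutadapt 4.1, mapped them with Bowtie2 2.4.5 on one strand to the Ensembl release 101 RNA of GRCm38, and summed the reads of each transcript by symbol, so that reads of near-identical copies could be split. Every column of the table was used. Fractions came from the labels.

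From the counts, all 12 libraries were fitted together in edgeR 4.0.16 (R 4.3.3) by its robust quasi-likelihood method, after TMM scaling and filterByExpr. A gene passed at a p under 0.05 after Benjamini-Hochberg adjustment, and SE was derived from fold change and F. A level is CPM scaled by TMM, and log2 CPM used a prior count of 2. Genes were set against each other only as reads per read or shares of reads, without correction for length. Positions and coding sequences come from GENCODE M21. On simulated counts of 21652 genes for early CMDMs against classical monocytes, 83.5% of 200 genes changed 3-fold were recovered. No replicates agreed within sampling noise.

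The members and lists were chosen with earlier results of these data known. All members are described by library. From each other list, called genes were named, at most 4 by level, or the 2 highest. Likeness is given for Lyve1 and Prox1. Fxyd6, Klhl4, Cldn11, Timd4, Sele, Selp and other genes named beyond this rule, and the keratin genes most like Sema3d, were chosen after their values were seen. Alternatives were DESeq2 1.42.0, other scalings and filters, the replicate number as a block, a stricter threshold, and leaving out each library.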

Additional observations from a re-analysis of the deposited data

How the results depend on the processing

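Of the comparisons without late CMDMs, the number of the 9 genes called was 7 to 8 in early CMDMs against classical monocytes, 2 to 3 in resident-like macrophages against classical monocytes and 7 in resident-like macrophages against early CMDMs when each library was left out in turn. Leaving out libraries moved the median log2 fold change of the 9 genes in late CMDMs between 3.40 and 3.84 against classical monocytes, between 1.66 and 2.02 against early CMDMs and between 2.51 and 2.84 against resident-like macrophages, the lowest value against classical monocytes came without classical monocyte 1. It moved the number of shared endothelial genes that were higher in late CMDMs between 1 and 2 against early CMDMs and between 5 and 9 against resident-like macrophages, and the number of blood endothelial genes between 1 and 2 against classical monocytes and between 1 and 4 against resident-like macrophages.

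Differences near 0 changed sign when a library was left out. Pdpn lay between -0.199 and 0.559 in early CMDMs against classical monocytes and between -0.178 and 0.198 in resident-like macrophages against early CMDMs. In resident-like macrophages against classical monocytes, Pdpn lay between -0.236 and 0.498, Flt4 between -0.0729 and 0.488 and Ccl21a between -0.0748 and 0.230. Scaled by library totals alone, Ccl21a was -0.0932 in that comparison and Lyve1 -0.0383 in resident-like macrophages against early CMDMs.

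Scaling by 10 leukocyte genes raised the median of all genes to 1.83 in early CMDMs and to 1.02 in late CMDMs, both against classical monocytes. It raised that median to 0.78 in late CMDMs against resident-like macrophages and lowered it to -0.79 in late against early CMDMs. On that scale the median of the 9 genes in late CMDMs was 4.75 against classical monocytes, 1.03 against early CMDMs and 3.43 against resident-like macrophages. The higher blood endothelial genes numbered 4 against classical monocytes and 3 against resident-like macrophages, and against early CMDMs 1 further lymphatic gene and 0 shared endothelial genes were higher. In resident-like macrophages, Lyve1 was -1.45 against early CMDMs and Pdpn 0.25 against classical monocytes, and Pdpn (1.88 in early CMDMs against classical monocytes) and Prox1 (1.03 in resident-like macrophages against classical monocytes) passed the threshold there.

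Keeping only genes with at least 10 counts in every library removed Prox1 and Flt4, and the medians of the remaining 7 genes were 3.03, 1.46 and 1.91 against classical monocytes, early CMDMs and resident-like macrophages, and 7, 3 and 6 further lymphatic genes that were higher. With no filter on low counts, 1 blood endothelial gene was higher than in classical monocytes. With only the 6 libraries compared, 2 shared and 1 blood endothelial genes were higher than in early CMDMs and 5 shared endothelial genes higher than in resident-like macrophages. At an adjusted p under 0.01 these were 1 blood endothelial gene against classical monocytes and 5 shared endothelial genes against resident-like macrophages, and at a log2 fold change of at least 1 no shared endothelial gene (0) was higher than in early CMDMs. The log2 ratio of Lyve1 to the other genes in resident-like macrophages minus late CMDMs was 1.06 with 7 genes and 1.66 with the 5 lineage genes, a choice made after seeing the data.

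The correlations of same-numbered libraries of different fractions, taken on deviations from the fraction mean, ran from -0.10 to 0.25. Libraries with different numbers were not compared in this way, so whether the replicate numbers pair the libraries was not tested. With the replicate number as a block the calls of the 9 genes numbered 8, 2 and 7, as without it, and Pdpn was 0.0867 in resident-like macrophages against classical monocytes. Small differences of genes with few reads, such as Flt4, were beyond this depth.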
